A study of Mus musculus with 31 samples.

Results

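The miR-379/miR-410 cluster is a run of microRNA hairpins in the imprinted Dlk1-Dio3 region of mouse chromosome 12. Its members were taken from the deposited count tables as every row whose miR number, in any letter, copy or arm, was 1 of the 35 numbers that belong to the cluster. This gave 76 of the 1966 microRNA rows. Of the 76 rows, 63 had counts in every library, 8 had between 1 and 50 counts over all libraries together, and 1 (miR-496b, whose hairpin lies on chromosome 19) had none.

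The small RNA of the right hippocampus was sequenced in 31 C57Bl/6 J mice, either wild type (WT) or without 5-HTT, the serotonin transporter (KO), to learn how exercise and a stress hormone act in the presence and absence of this transporter. The WT mice fell into a group on water and standard housing (WT-water, n = 7), a group with 4 weeks of exercise (WT-exercise, n = 5) and a group with 4 weeks of corticosterone, the main glucocorticoid of the mouse (WT-corticosterone, n = 6). The KO mice fell into the same kinds of group (KO-water, n = 6; KO-exercise, n = 5; KO-corticosterone, n = 2). The labels call the samples biological replicates and give neither age nor sex nor the dose or route of the hormone. Libraries held 1011285 to 4052174 microRNA counts, and 828 to 1034 microRNAs were detected in each.

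MicroRNAs are short RNAs that guide Argonaute proteins to messenger RNAs, mainly by pairing of the seed, bases 2 to 8 of the mature strand, and lower the output of those messengers. Each hairpin can give a strand from its 5′ arm (5p) and its 3′ arm (3p), and the Dlk1-Dio3 hairpins are transcribed from the maternally inherited chromosome as long precursors that also hold the non-coding RNAs Meg3, Rian and Mirg. In neurons the cluster is known for its induction by activity through Mef2 factors, for miR-134, which holds back Limk1 synthesis in dendrites and limits spine size, and for miR-485, which acts on presynaptic proteins.

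In GENCODE M21, which uses the GRCm38 build named in the submitters' processing notes, 38 hairpins of the cluster lie at chr12:109709060-109743795, a span of 34.7 kb. Of these, 37 are on the plus strand and Mir299b is on the minus strand, opposite Mir299a. The first 24 plus-strand hairpins, from Mir379 to Mir544, lie in no annotated host gene. The last 13, from Mir382 to Mir410, lie inside the non-coding gene Mirg (chr12:109729764-109749460), 8 of them overlapping its exons and 5 in its introns. Meg3 ends upstream of the cluster, at chr12:109541001-109571726.

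RefSeq (GRCm38.p6) gave a mature sequence for 72 of the 76 members, with 65 different seeds, 7 of which were shared by 2 members each. The next sequences are 4 pairs of near-identical members whose counts could be confused in mapping, with the seed in capitals and each read 5′ to 3′. miR-376b-5p and miR-376c-5p share a seed and differ at 1 position. miR-379-3p and miR-411-3p share a seed and differ at 2 positions, miR-300-3p and miR-381-3p differ at 3 positions, and miR-376a-3p and miR-376b-3p differ at 3 positions. The shorter strands of miR-299b match those of miR-299a with 0 mismatches, so the counts of these 2 hairpins are uncertain. Of the members with a sequence, 3 further pairs differ at 3 positions (miR-494-5p and miR-154-5p, miR-379-3p and miR-758-3p, miR-496a-5p and miR-377-5p).
miR-376b-5p: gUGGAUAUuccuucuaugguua
miR-376c-5p: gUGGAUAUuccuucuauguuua
miR-379-3p: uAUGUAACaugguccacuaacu
miR-411-3p: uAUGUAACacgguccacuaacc
miR-300-3p: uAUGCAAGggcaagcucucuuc
miR-381-3p: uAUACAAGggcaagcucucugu
miR-376a-3p: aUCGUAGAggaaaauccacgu
miR-376b-3p: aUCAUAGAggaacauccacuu

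The following sequences are those of some of the members whose levels or arm usage differed in the next paragraphs, again with the seed in capitals. They are the strands of miR-379, miR-411, miR-134, miR-382, miR-409 and miR-544, at the named arm. The 5p strands of miR-379 and miR-411 have seeds that are alike but not equal, and miR-379-5p shares its seed with miR-1193-5p, a member with a mean level of 0.719 CPM, the scaled level described below.
miR-379-5p: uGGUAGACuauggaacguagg
miR-411-5p: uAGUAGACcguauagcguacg
miR-134-5p: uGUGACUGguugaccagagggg
miR-382-5p: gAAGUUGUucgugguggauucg
miR-382-3p: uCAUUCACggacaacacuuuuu
miR-409-5p: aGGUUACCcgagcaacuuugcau
miR-409-3p: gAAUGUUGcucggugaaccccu
miR-544-5p: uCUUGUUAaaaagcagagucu
miR-544-3p: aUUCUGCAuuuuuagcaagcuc

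Members of the cluster held 2.08% to 2.89% of all microRNA counts in a library. The share was 2.74% ± 0.13 (SD, n = 7) in WT-water, 2.53% ± 0.30 (n = 5) in WT-exercise, 2.37% ± 0.19 (n = 6) in WT-corticosterone, 2.43% ± 0.34 (n = 6) in KO-water and 2.34% ± 0.13 (n = 5) in KO-exercise. It was 2.39% ± 0.06 (n = 2) in KO-corticosterone. These ranges overlapped in every pair of groups but that of WT-water and KO-corticosterone, for which no test was made.

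Levels are given as CPM, a microRNA's counts over all microRNA counts of the library, expressed per 1000000 and scaled between libraries by the trimmed mean of M values (TMM). Over the 31 libraries, 6 members had a mean of at least 1000 CPM, 33 had 100 to 1000, 15 had 10 to 100 and 22 had less. The most abundant was miR-376a-3p with a mean of 4000.0 CPM, followed by miR-376b-3p with 2119, miR-495-3p with 1478, miR-382-5p with 1371, miR-376c-3p with 1182 and miR-154-5p with 1164. miR-541-5p (932 CPM), miR-381-3p (909), miR-300-3p (884) and miR-379-5p (752) completed the first 10, which held 59.5% of the cluster's CPM. miR-376a-3p and miR-376b-3p, of the miR-376 family known for adenosine-to-inosine editing of seeds in brain, thus led the 76 members.

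Of 37 hairpins with counts on both arms, 12 gave more 5p and 25 gave more or as much 3p, so neither arm was the rule across the cluster. miR-134 was counted almost wholly from its 5p arm (97.1% of its counts) and miR-495 from its 3p arm (98.7%). miR-369 (61.8% from 5p), miR-380 (58.1% from 3p) and miR-485 (57.7% from 3p) used both arms to a like degree. miR-485-3p ranged from 173.6 to 218 CPM and miR-485-5p from 124 to 179.7 CPM over the 7 WT-water libraries.

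The libraries of a group were not alike, and this bears on every comparison. A principal axis of the variation within groups, computed from 564 microRNAs without the cluster's members, took 37.3% of that variation. All 7 WT-water libraries scored between -9.99 and -7.96 on it. KO-water libraries 1, 2 and 5 scored -7.99, -8.19 and -7.63, while KO-water libraries 3, 4 and 6 scored 11.2, 16.5 and 15.2.

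The 3 high KO-water libraries are exactly those that the submitters placed in their table of KO against WT mice on water, together with a library labelled KO-exercise 4 (axis score 6.43). The other 3 appear only in the tables of KO mice. WT-exercise libraries 1 and 2 scored -8.14 and -11.1, close to WT-water, and WT-exercise libraries 3, 4 and 5 scored 13.7, 8.24 and 7.09. WT-corticosterone spread from -8.72 to 9.17 and KO-exercise from -5.72 to 10.4, without a gap of that kind.

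Marker microRNAs moved with this axis. They were not left out when the axis was computed, so this is in part built in. In the KO-water libraries of the genotype table the summed level of 4 oligodendrocyte markers was 2187 to 2662 CPM, against 5046 to 6056 CPM in the other KO-water libraries. The sum of 6 microglia and immune markers was 6774 to 9020.5 CPM against 2480.3 to 3155 CPM, that of 4 vessel markers 22319 to 28026 against 11289.8 to 15129, and that of 3 red blood cell markers 495.3 to 607 against 1195 to 1568. The 6 neuron markers summed to 413718 to 461846 against 388246 to 404124 CPM, the 3 choroid plexus markers overlapped (5233 to 5962 against 5717 to 18122 CPM), and no marker of any list was at 0. In these whole-tissue libraries fewer cells of a type and less RNA per cell cannot be told apart, and the part of these markers in the results on the cluster was not tested.

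The cluster's members followed the same division of the libraries, as the heat map of members by library shows. Among the 54 members with a mean of at least 10 CPM, KO-water libraries 1 and 5 each had 14 outside the range of the 7 WT-water libraries and KO-water library 2 had 28, whereas KO-water libraries 3, 4 and 6 had 42, 46 and 43. For all other microRNAs at that level the shares outside the WT-water range were 18.3%, 21.2% and 39.0% in the former and 69.5%, 72.2% and 71.7% in the latter, against 25.9%, 25.9% and 51.9% and then 77.8%, 85.2% and 79.6% of the members. In the exercised and hormone-treated libraries 27 to 42 of the 54 members lay outside that range, at most 77.8% of them, beside at most 71.5% of the other microRNAs. KO-exercise 1 and WT-corticosterone 2 had the fewest members outside, 27 each, beside 45.6% and 51.2% of the other microRNAs.

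**Figure D1:**
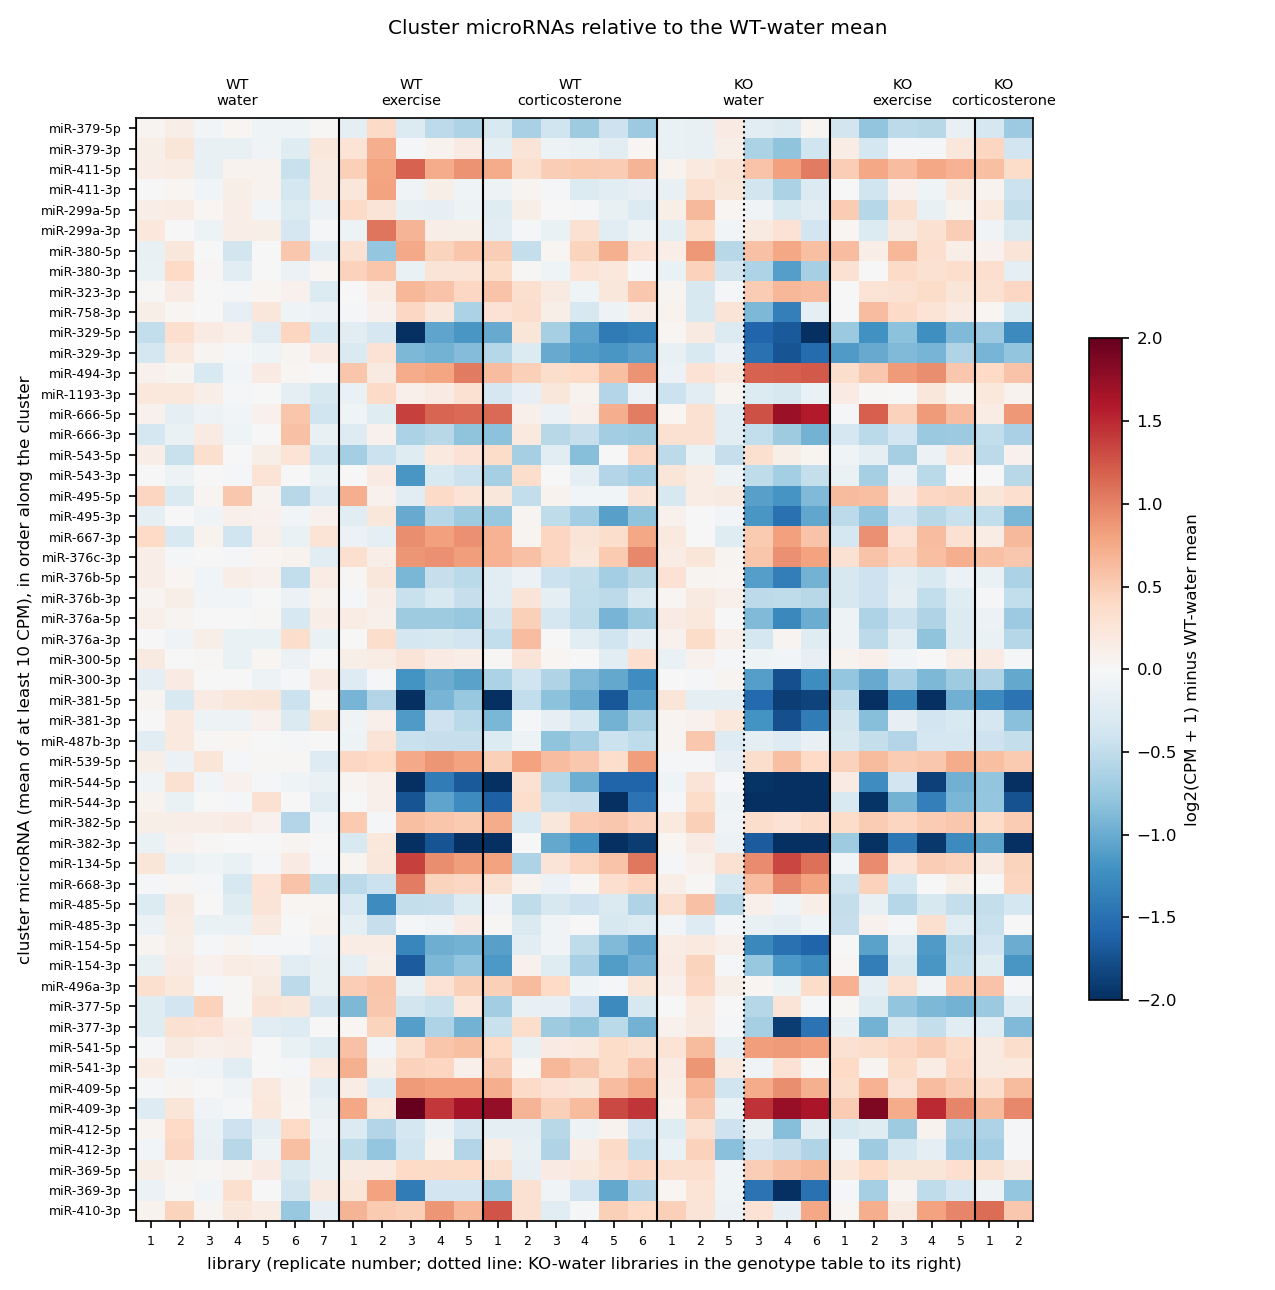
Heat map of the 54 cluster members with a mean of at least 10 CPM (rows, in order from miR-379 to miR-410) in 31 libraries (columns, by group), as log2(CPM + 1) minus the mean of the 7 WT-water libraries. KO-water libraries 1 and 5 each have 14 of the 54 members outside the WT-water range and library 2 has 28, while KO-water 3, 4 and 6, to the right of the dotted line, have 42 to 46, with blue rows for miR-544, miR-382-3p, miR-154 and miR-369-3p and red rows for miR-409-3p, miR-666-5p and miR-134-5p.

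Exercise in WT mice was compared with water in WT mice to ask what activity changes in the hippocampus with the transporter present. Of 62 members tested, 13 rose and 3 fell, which is 20.97% and 4.84% of them. Over all 553 microRNAs tested 19.9% rose and 12.7% fell, so the share of risers in the cluster was near the background. The tests were edgeR quasi-likelihood tests with Benjamini-Hochberg adjustment over all microRNAs tested, at an adjusted p below 0.05. The median log2 fold change of the 62 members was -0.11, against 0.04 over all microRNAs tested. Without scaling of the library sizes the median over all microRNAs was -0.07, and 7 members rose and 4 fell. Marker sums differed between these groups as well. The oligodendrocyte markers had a median of 2423 CPM (2171 to 6996) with exercise and 6682 CPM (5858 to 7633) with water, the microglia and immune markers 6020.4 (2782 to 10904) and 2546 CPM (2444 to 3465), and the red blood cell markers 578 (454 to 1862) and 1473 CPM (1154 to 2415). The part of these markers in the exercise result was not tested.

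miR-411-5p, from the second hairpin of the cluster, had 736, 909, 1191, 881.7 and 979.9 CPM in WT-exercise libraries 1 to 5 and ranged from 386 to 594, with a median of 554 CPM, in WT-water. All 5 exercised libraries lay above all 7 water libraries. Its log2 fold change was 0.85 ± 0.15 (± SE here and below; edgeR adjusted p = 0.00185), and the call held when any 1 of the 12 libraries was left out.

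miR-409-3p had 265, 178.02, 646, 412.5 and 493.5 CPM in the exercised libraries and ranged from 129.6 to 183, with a median of 152 CPM, in WT-water. Exercised library 2 lay inside the water range and the other 4 above it. The rise was the largest among the members, 1.40 ± 0.25 in log2 (edgeR adjusted p = 0.00266), and its partner strand miR-409-5p rose by 0.57 ± 0.19 (edgeR adjusted p = 0.0348).

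miR-134-5p, the spine-limiting microRNA of the cluster, had 228, 255, 566, 419 and 390.4 CPM with exercise and ranged from 199 to 259, with a median of 215 CPM, with water. Exercised libraries 1 and 2 lay within the water range and libraries 3, 4 and 5 above it. The log2 fold change was 0.79 ± 0.21 (edgeR adjusted p = 0.0122).

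Among the other risers, miR-376c-3p had 1077, 948, 1587, 1629 and 1538 CPM with exercise and 748 to 946 CPM with water, without overlap, a log2 fold change of 0.69 ± 0.16 (edgeR adjusted p = 0.00667). miR-539-5p had 126.5, 125, 161, 177 and 166 CPM against 79.1 to 112 CPM, also without overlap (0.70 ± 0.15, edgeR adjusted p = 0.00528). miR-494-3p (0.73 ± 0.17, edgeR adjusted p = 0.00745) and miR-410-3p, the last hairpin's major strand (0.65 ± 0.18, edgeR adjusted p = 0.017), did not overlap either. The remaining risers were miR-666-5p, miR-382-5p, miR-541-5p, miR-323-3p and miR-369-5p, with log2 fold changes from 0.34 to 0.84.

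The 3 members that fell were miR-381-5p, miR-329-5p and miR-300-3p. miR-381-5p had 79.4, 101, 27.0, 79.0 and 89.8 CPM with exercise and 112 to 180.0 CPM with water, so that every exercised library lay below every water library (-0.9996 ± 0.26, edgeR adjusted p = 0.0114). miR-300-3p fell by 0.62 in log2 (edgeR adjusted p = 0.0231), and its close relative miR-381-3p, activity-regulated in cultured neurons, missed the threshold (-0.34 ± 0.18, edgeR adjusted p = 0.163). The most abundant member, miR-376a-3p, had 4291, 5453, 3350.2, 3419 and 3273 CPM with exercise and ranged from 3890.3 to 5472, with a median of 4058 CPM, with water, and did not pass (-0.10 ± 0.15, edgeR adjusted p = 0.6).

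Of the 62 members 7 did not overlap between the groups (11.3%), against 10.3% of all microRNAs tested. Of the 16 called members 7 kept their call whichever library was left out (miR-411-5p, miR-494-3p, miR-376c-3p, miR-381-5p, miR-539-5p, miR-134-5p and miR-409-3p). The count was 7 without WT-exercise library 4, 8 without library 5 and 32 without library 2. With each library's axis score added to the model, 1 member passed (against 4.88% of all microRNAs), miR-411-5p (log2 fold change 0.63, edgeR adjusted p = 0.0199). The scores were not centred by group, and WT-exercise libraries 3, 4 and 5 scored far above every WT-water library. This fit therefore cannot part exercise from the axis.

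**Figure D2:**
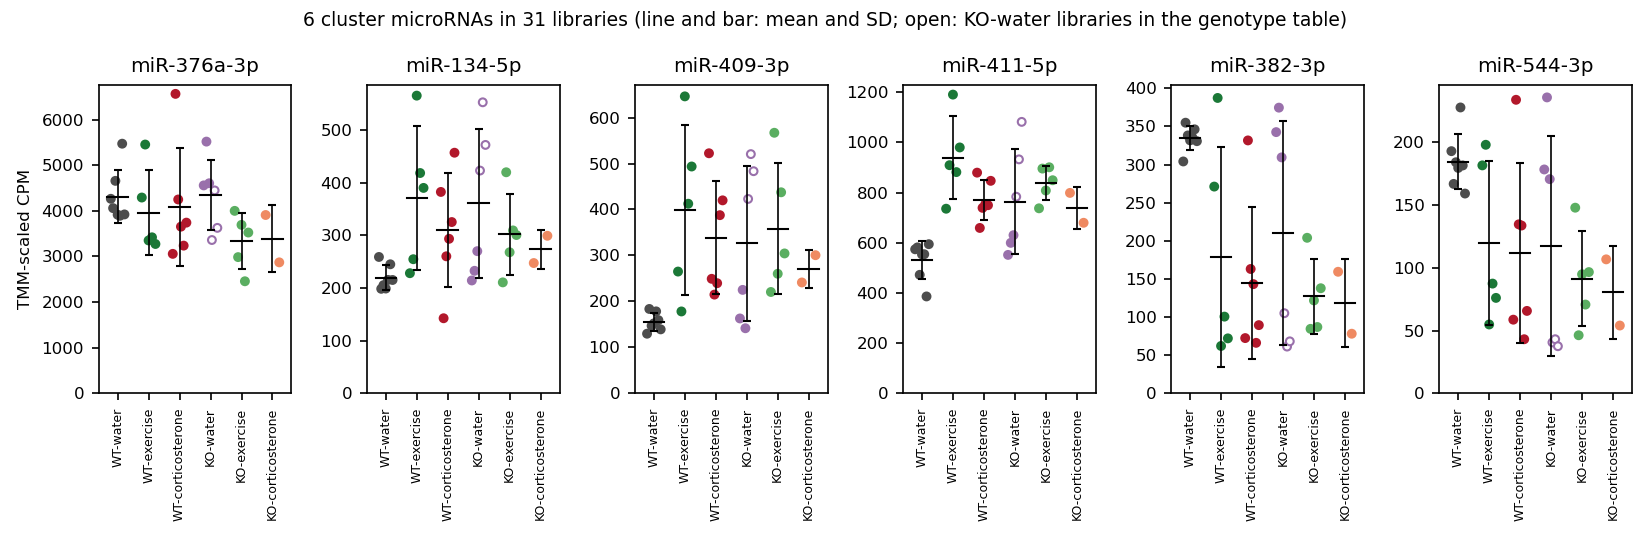
TMM-scaled CPM (linear axis from 0) of 6 cluster members in each of the 31 libraries, by group, with the group mean as a line and the SD as a bar. The open points, KO-water libraries in the genotype table, lie above the other KO-water points for miR-134-5p, miR-409-3p and miR-411-5p and below them for miR-382-3p and miR-544-3p.

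Corticosterone in WT mice, a model of raised stress hormone, was compared with the same 7 WT-water libraries. Of 62 members tested 12 rose and 15 fell (19.4% and 24.2%), against 24.9% and 17% of the 547 microRNAs tested. The median log2 fold change was -0.10 over the members and 0.06 over all microRNAs. Without scaling the latter was -0.07, and 7 members rose and 21 fell. With corticosterone the oligodendrocyte markers had a median of 2843 CPM (2202 to 6949.9), the microglia and immune markers 5166 CPM (2800.03 to 8355) and the red blood cell markers 675 CPM (477 to 1197.4), to be set against the WT-water values above, and their part in the result was not tested. Both comparisons share the WT-water libraries, so a value that recurs in them is not a second measurement.

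miR-379-5p, the first hairpin's major strand, had 716, 564, 675, 543.1, 664.5 and 538 CPM in WT-corticosterone libraries 1 to 6 and ranged from 834 to 975, with a median of 899.6 CPM, in WT-water. Every hormone-treated library lay below every water library, with a log2 fold change of -0.47 ± 0.11 (edgeR adjusted p = 0.00316). In WT-exercise miR-379-5p had 785, 1153, 738, 616 and 579 CPM, with library 2 above the water range, and did not pass (-0.18 ± 0.15, edgeR adjusted p = 0.336).

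miR-300-3p had 804, 950.2, 823, 676, 614 and 525.7 CPM with corticosterone and ranged from 1099 to 1403, with a median of 1235 CPM, with water, again without overlap (-0.72 ± 0.12, edgeR adjusted p = 0.000337). miR-381-5p (30.2 to 107 against 112 to 180.0 CPM) also fell without overlap (-1.11 ± 0.23, edgeR adjusted p = 0.00177). The steepest fall was that of miR-382-3p, with 72.3, 332, 162.97, 143, 66.1 and 89.3 CPM against 304 to 355 CPM (-1.18 ± 0.29, edgeR adjusted p = 0.00441). Library 2 lay within the water range for miR-382-3p and the other 5 far below it.

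miR-329-3p, another activity-regulated member, fell (-0.79 ± 0.15, edgeR adjusted p = 0.00067), with 360.0, 445, 265, 248, 239 and 251 CPM against 419 to 616 CPM. miR-495-3p, the third most abundant member, fell as well (-0.54 ± 0.14, edgeR adjusted p = 0.00557), as did miR-154-5p (-0.53 ± 0.15, edgeR adjusted p = 0.0111). miR-381-3p, miR-487b-3p, miR-154-3p, miR-329-5p, miR-376b-5p, miR-666-3p, miR-323-5p and miR-544-5p made up the rest of the 15.

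Among the members that rose, miR-409-3p had 522, 249, 215, 239.5, 388 and 419.8 CPM against 129.6 to 183 CPM, without overlap (1.20 ± 0.20, edgeR adjusted p = 0.000389). miR-411-5p had 879, 659, 739, 753, 749.7 and 847 CPM, all above the water range (0.60 ± 0.13, edgeR adjusted p = 0.00204). miR-376c-3p (0.65 ± 0.13, edgeR adjusted p = 0.00141), miR-539-5p (0.67 ± 0.14, edgeR adjusted p = 0.00154), miR-494-3p (0.64 ± 0.15, edgeR adjusted p = 0.00308) and miR-409-5p (0.58 ± 0.13, edgeR adjusted p = 0.00248) were also higher in all 6 hormone-treated libraries than in any water library.

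miR-134-5p had 383, 143, 260.4, 294, 326 and 457 CPM with corticosterone, with library 2 below the water range and the other 5 above it. It passed the test (0.57 ± 0.22, edgeR adjusted p = 0.0449) but kept that call in only 2 of the 13 fits with 1 library removed, where the adjusted p reached 0.157. miR-382-5p, miR-541-3p, miR-667-3p, miR-666-5p and miR-323-3p were the other members that rose. Of the 62 members 9 did not overlap between the groups (14.5%, against 13.7% of all microRNAs). Of the 26 called members named by the rule, 17 kept their call in all 13 such fits, and with the axis score in the model 2 members passed (against 6.58% of all microRNAs), miR-379-5p (log2 fold change -0.63, edgeR adjusted p = 0.0239) and miR-539-5p (0.66, adjusted p = 0.0478). All WT-corticosterone libraries but library 2 scored above every WT-water library, so this fit cannot part the hormone from the axis.

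**Figure D3:**
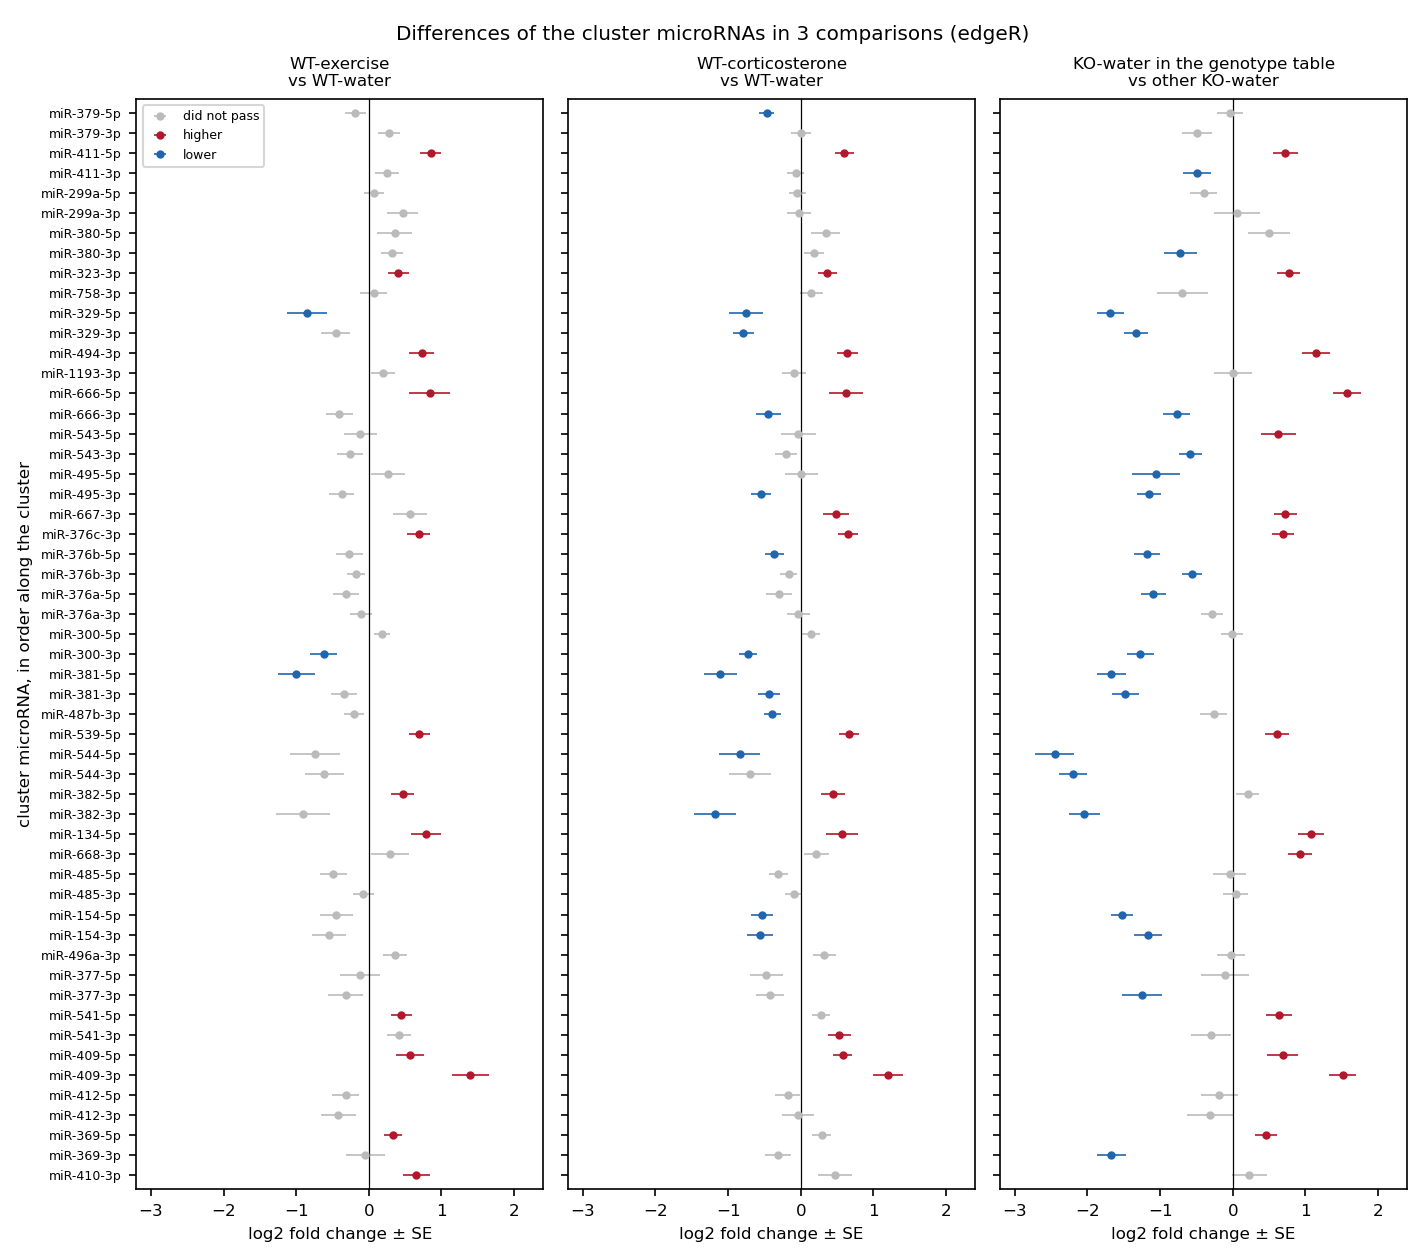
Log2 fold changes (points) and standard errors (bars) of the 54 members with a mean of at least 10 CPM, in order from miR-379 to miR-410, in WT-exercise over WT-water, WT-corticosterone over WT-water, and KO-water in the genotype table over the other KO-water libraries. Red and blue points passed the edgeR test as higher or lower; the right panel reaches from -2.45 (miR-544-5p) to 1.58 (miR-666-5p).

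The exercised and hormone-treated WT groups were also compared with each other, which uses no water library. No member of 58 passed the edgeR test, none was at an unadjusted p below 0.05 (3.84% of all microRNAs were), and DESeq2 called none either, while 0 of 521 microRNAs tested passed (0%). miR-299a-3p had the smallest p, with a log2 fold change of 0.52 ± 0.25 for exercise over corticosterone (edgeR unadjusted p = 0.0558, adjusted p = 0.999).

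In KO mice no member of 58 passed for exercise against water, where 21 of 523 microRNAs did (4.02%). At an unadjusted p below 0.05 there were 5 members (16.4% of all microRNAs were), and DESeq2 called none. miR-495-5p had the smallest p, with 29.8, 29.2, 21.1, 25.4 and 26.04 CPM in KO-exercise libraries 1 to 5, 14.9, 20.9 and 21.3 CPM in KO-water 1, 2 and 5 and 8.31, 7.76 and 9.72 CPM in KO-water 3, 4 and 6. Its log2 fold change was 0.94 ± 0.30 (edgeR adjusted p = 0.121). miR-380-3p (0.65 ± 0.24, edgeR adjusted p = 0.213) and miR-485-5p (-0.47 ± 0.19, edgeR adjusted p = 0.248) came next.

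The outcome in KO mice turned on which KO-water libraries stood as controls. Against the 3 KO-water libraries of the genotype table, 23 of 58 members passed (15 higher and 8 lower with exercise), beside 32.8% of all microRNAs. Against the other 3 KO-water libraries 14 of 61 passed (3 higher and 11 lower), beside 21.7% of all microRNAs. miR-300-3p was higher with exercise against the first set (log2 fold change 0.48, edgeR adjusted p = 0.0481) and lower against the second (-0.80, adjusted p = 0.00506). miR-300-3p itself had 732, 619, 798, 670.0 and 764 CPM in KO-exercise, 579.8, 367 and 526.4 in the first set and 1237, 1227 and 1287 in the second, so the exercised libraries lay between the 2 sets.

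With the axis score in the model 9 of 58 members passed for exercise in KO mice (4 higher and 5 lower), beside 23.1% of all microRNAs. Among them were miR-495-5p (1.00, edgeR adjusted p = 0.00267), miR-380-3p (0.68, adjusted p = 0.00374), miR-369-3p (0.50, adjusted p = 0.00844), miR-376a-3p (-0.36, adjusted p = 0.0340) and miR-485-5p (-0.48, adjusted p = 0.0441). miR-485-5p had 108.1, 135, 101, 120.4 and 107 CPM in KO-exercise and 187, 225, 161, 143, 103.2 and 162 CPM in KO-water libraries 1 to 6.

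With 2 KO-corticosterone libraries no member of 61 passed against KO-water, 1 was at an unadjusted p below 0.05 (6.94% of all microRNAs were) and DESeq2 called none, while 3 of 576 microRNAs passed (0.521%). For miR-382-3p they had 159 and 78.1 CPM, the first between the KO-water sets and the second within the set of the genotype table. For miR-134-5p they had 248 and 299.4 CPM, the first within the other KO-water set and the second between the sets. Against the set of the genotype table alone 11 of 58 members passed (19.2% of all microRNAs did), and against the other set alone 3 of 61 did (7.08% of all microRNAs).

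The absence of the transporter itself was examined by comparing KO-water with WT-water. No member of 61 passed the edgeR test (0% of 545 microRNAs did), 11 members were at an unadjusted p below 0.05 (32.8% of all microRNAs were), and DESeq2 called 10 (21.1% of all microRNAs). The edgeR count was 10, 8 and 11 without KO-water library 1, 2 or 5 and was 0 without any other library. miR-409-3p was nearest, with 162.8, 225 and 141 CPM in KO-water 1, 2 and 5, 423, 520.5 and 483 CPM in KO-water 3, 4 and 6 and 129.6 to 183 CPM in WT-water (1.10 ± 0.29, edgeR adjusted p = 0.0598). miR-541-5p (0.60 ± 0.17, edgeR adjusted p = 0.0598) and miR-494-3p (0.80 ± 0.24, edgeR adjusted p = 0.0686) followed.

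The KO-water libraries of the genotype table alone gave 39 of 63 members against WT-water (15 higher and 24 lower), beside 60.9% of all microRNAs. The other 3 KO-water libraries alone gave none, beside 0% of all microRNAs. For miR-154-5p, the set of the genotype table had 617, 540.3 and 500.4 CPM, the other set 1679.8, 1741 and 1622 CPM and WT-water 1399.6 to 1636 CPM. The log2 fold change of miR-154-5p against WT-water was -1.28 for the former (edgeR adjusted p = 9.49e-08) and 0.14 for the latter (adjusted p = 0.877).

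Between KO-exercise and WT-exercise no member of 58 passed (0% of 517 microRNAs did), none was at an unadjusted p below 0.05 (0.967% of all microRNAs were) and DESeq2 called none. miR-329-3p had the smallest p, at -0.43 ± 0.26 in log2 (edgeR unadjusted p = 0.122, adjusted p = 0.999). The response to exercise did not pass as different between genotypes for any of 62 members (9 at an unadjusted p below 0.05, beside 17.7% of all microRNAs), nor the response to corticosterone for any of 63 (3 at that level, beside 10.3%), and DESeq2 called none in either. No microRNA passed either interaction (0% of 571 and 0% of 630). miR-134-5p had the smallest p for exercise, the log2 response in KO minus that in WT being -1.09 ± 0.36 (edgeR adjusted p = 0.19), and miR-409-3p for corticosterone (-1.37 ± 0.51, edgeR adjusted p = 0.447). With the KO-water libraries of the genotype table as the only KO controls, 30 of 63 members passed for exercise (42.3% of all microRNAs) and 27 of 63 for corticosterone (34%), and with the other 3 none passed in either.

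The 2 sets of KO-water libraries, which carry the same labels, were compared with each other because they differ along the axis. Of 59 members 14 were higher and 23 lower in the set of the genotype table (23.7% and 39.0%), against 28.9% and 25.6% of 532 microRNAs. The median log2 difference was -0.30 over the members and 0.05 over all microRNAs. Since the sets carry the same genotype and treatment, these values describe a spread within a group and test no condition.

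miR-544-3p had 40.5, 43.1 and 37.5 CPM in KO-water 3, 4 and 6 and 178.5, 236 and 170.8 CPM in KO-water 1, 2 and 5, a log2 difference of -2.20 ± 0.19 (edgeR adjusted p = 6.77e-06). miR-382-3p had 105, 61.2 and 68.1 against 342, 375 and 309 CPM (-2.04 ± 0.21, edgeR adjusted p = 1.69e-05). miR-369-3p had 170.9, 109 and 169 against 492, 580.2 and 449.5 CPM (-1.67 ± 0.20, edgeR adjusted p = 3.49e-05). For all 3 the sets did not overlap.

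In the other direction miR-666-5p had 178.2, 244 and 220.4 against 75.2, 89.98 and 62.4 CPM (1.58 ± 0.19, edgeR adjusted p = 3.79e-05). miR-134-5p had 423, 553 and 472 against 214, 233 and 270.2 CPM (1.08 ± 0.18, edgeR adjusted p = 0.000334). miR-376a-3p, in contrast, had 3359, 4447 and 3626 against 4557, 5517 and 4604 CPM and did not pass (-0.29 ± 0.15, edgeR adjusted p = 0.13). Of the 59 members 40 did not overlap between the sets (67.8%), against 64.3% of all microRNAs tested.

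The 2 strands of a hairpin come from 1 precursor, and their calls were set beside each other for each hairpin of the cluster. Between the KO-water sets both arms of 26 hairpins were tested. The arms passed in opposite directions in 6 hairpins (miR-411, miR-666, miR-543, miR-134, miR-668 and miR-369), both were lower in 6 (miR-329, miR-495, miR-376b, miR-381, miR-544 and miR-154), and both were higher in miR-409. Over all hairpins with both arms tested the arms were opposite in 19.4%, both lower in 10.3% and both higher in 7.88%. In WT-corticosterone against WT-water the arms of 3 of 28 hairpins (miR-323, miR-666 and miR-382) passed in opposite directions, both arms of miR-329, miR-381 and miR-154 fell, and both of miR-409 rose, beside 6.47%, 6.47% and 7.65% of all hairpins. In WT-exercise only miR-409 of 28 had both arms called, both higher, and none had opposite or 2 lower arms, beside 5.2%, 2.31% and 2.31% of all hairpins.

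The ratio of 5p to 3p counts was tested for each hairpin with limma on log2 ratios, at an adjusted p below 0.05. In WT-exercise 11 of 28 hairpins of the cluster differed from WT-water, against 35.4% of the 175 hairpins tested, and in WT-corticosterone 10 of 28 did, against 36.7% of 169. Between the KO-water sets 15 of 26 differed, against 52.8% of all hairpins. In KO-exercise 2 of 26 differed from KO-water, against 7.36% of all hairpins, and in KO-water against WT-water 0 of 28 did (0% of all hairpins). The WT-exercise count lay between 3 and 7 in 9 of the 12 fits with 1 library removed, lowest without WT-exercise 4 or 5, and was 14 without WT-exercise 1 or 2. The KO-exercise count was 2 without KO-water 1, 2 or 5, 1 without KO-water 4 or 6, and 0 without KO-water 3 or any 1 KO-exercise library. In KO-water against WT-water the count was 6, 5 and 3 without KO-water 1, 2 or 5.

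miR-382, whose 5p strand made up 85.9% of its counts, had log2 ratios of 1.97, 1.76, 1.82, 1.88, 1.79, 1.08 and 1.67 in WT-water libraries 1 to 7. In WT-exercise libraries 1 to 5 they were 2.54, 1.48, 4.74, 4.00 and 4.44, and in KO-water libraries 1 to 6 1.87, 2.03, 3.73, 4.45, 1.75 and 4.39. WT-exercise 3, 4 and 5 and KO-water 3, 4 and 6 thus stood apart from the rest of their groups. The log2 ratio was higher by 1.73 ± 0.48 in WT-exercise than in WT-water (limma adjusted p = 0.0212), by 1.81 ± 0.42 in WT-corticosterone (limma adjusted p = 0.00414) and by 2.303 ± 0.24 between the KO-water sets (limma adjusted p = 7.52e-07).

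miR-134 had log2 ratios of 4.18 to 4.82 in WT-water, and 6.28, 7.52 and 7.29 in the KO-water libraries of the genotype table against 3.95, 4.51 and 4.66 in the others (2.65 ± 0.39, limma adjusted p = 2.27e-05). miR-369 had 2.29, 3.03 and 2.47 against 0.59, 0.37 and 0.33 (2.17 ± 0.24, limma adjusted p = 1.4e-06). miR-409 moved the other way, with a lower 5p to 3p ratio in WT-exercise (-0.75 ± 0.15, limma adjusted p = 0.00451) and in WT-corticosterone (-0.55 ± 0.15, limma adjusted p = 0.00876), since its minor 3p strand rose more than its 5p strand.

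The arm ratio of miR-379 was lower in WT-exercise, WT-corticosterone and KO-exercise than on water and did not pass between the KO-water sets (0.46 ± 0.25, limma adjusted p = 0.129). Its log2 ratio was 3.32, 3.27, 3.48, 3.57, 3.36, 3.53 and 3.18 in WT-water libraries 1 to 7 and 2.93, 3.03, 3.15, 2.79 and 2.60 in WT-exercise libraries 1 to 5, without overlap (-0.48 ± 0.14, limma adjusted p = 0.0214). It was 3.26, 2.47, 3.08, 2.80, 3.18 and 2.62 in WT-corticosterone libraries 1 to 6, of which libraries 1 and 5 lay within the water range (-0.48 ± 0.15, limma adjusted p = 0.0206). In KO mice it was 2.87, 2.95, 2.88, 2.86 and 3.00 in KO-exercise, 3.38, 3.37 and 3.43 in KO-water 1, 2 and 5 and 3.81, 3.92 and 3.84 in KO-water 3, 4 and 6.

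All 5 KO-exercise libraries lay below all 6 KO-water libraries for the miR-379 ratio (-0.71 ± 0.18, limma adjusted p = 0.0368). The 2 KO-corticosterone libraries had 2.61 and 3.05. With the axis score in the model the difference was -0.70 in KO-exercise (limma adjusted p = 0.0017) and -0.74 in WT-corticosterone (adjusted p = 0.0281), and -0.46 in WT-exercise, where it no longer passed (adjusted p = 0.145). The difference in the miR-379 response to exercise between genotypes was -0.23 ± 0.20 (KO minus WT, limma adjusted p = 0.527). The call did not hold without WT-exercise library 4 (-0.46, adjusted p = 0.0611) or 5 (-0.41, adjusted p = 0.0587), nor without WT-corticosterone library 6 (-0.43, adjusted p = 0.0536). In KO-exercise it was lost in 8 of 11 such fits with differences between -0.73 and -0.66, and the adjusted p reached 0.0975.

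The levels behind the miR-379 ratio were 516 to 801 CPM of miR-379-5p in KO-exercise against 735 to 1001 in KO-water, and 66.3 to 100.1 CPM of miR-379-3p against 48.3 to 92.4. Neither strand passed by itself in KO mice (-0.34 ± 0.16 and 0.35 ± 0.20 in log2, edgeR adjusted p = 0.327 and 0.43). Reads of miR-379-3p could be shared with miR-411-3p, from which it differs at 2 positions, and the counts do not show how such reads were assigned. The second hairpin of KO-exercise was miR-495, with a ratio higher by 0.96 ± 0.21 (limma adjusted p = 0.0277) and a minor 5p strand of 21.1 to 29.8 CPM against 7.76 to 21.3 CPM.

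**Figure D4:**
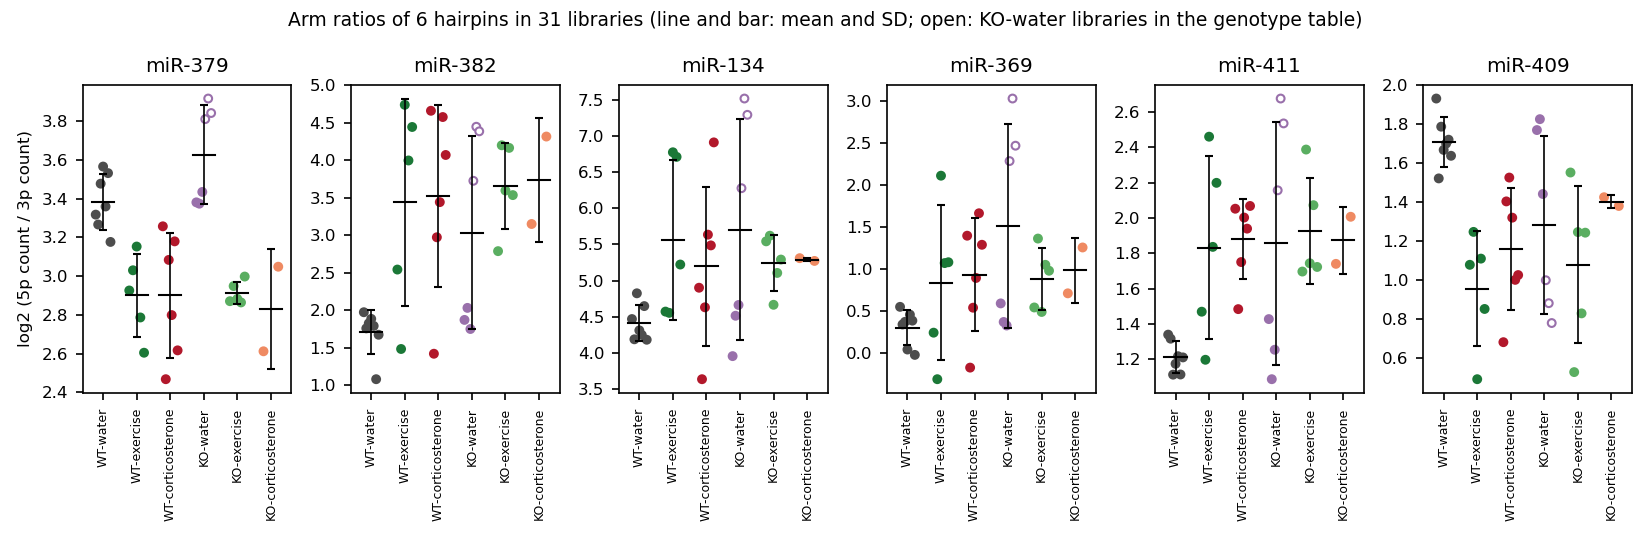
Log2 ratio of 5p to 3p counts for 6 hairpins in each of the 31 libraries, by group, with the group mean as a line and the SD as a bar; the vertical axes differ and do not start at 0. For miR-379, miR-382, miR-134, miR-369 and miR-411 the open points (KO-water libraries in the genotype table) lie above the other KO-water points, and for miR-409 below them. For miR-379 all KO-exercise points lie below all KO-water points.

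Position in the cluster was set beside these calls as a description, and the difference between the regions was not tested. In WT-exercise 7 of 23 tested members from hairpins inside Mirg rose and none fell, while of 39 members from hairpins upstream of Mirg 6 rose and 3 fell, beside the 19.9% and 12.7% of all microRNAs. In WT-corticosterone 5 rose and 3 fell of 23 inside Mirg, and 7 rose and 12 fell of 39 upstream, beside 24.9% and 17%. Between the KO-water sets 6 were higher and 7 lower of 22 inside Mirg, and 8 higher and 16 lower of 37 upstream, beside 28.9% and 25.6%. Members of opposite call lay side by side, as with miR-382-3p next to miR-134-5p between the KO-water sets.

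The sequences printed above differ in base content, and the difference between the KO-water sets went with it. The 13 members that were higher and had a sequence had a median of 23.8% U and 52.4% G and C, and the 23 that were lower had 31.8% U and 40.9% G and C. The medians over all microRNAs with a sequence were alike, 23.8% U and 52.2% G and C for the 130 that were higher and 31.8% U and 45.5% G and C for the 129 that were lower. None of the 13 members ended in UU, as 10 of the 23 did, miR-369-3p, miR-382-3p and miR-154-3p among them. Over all microRNAs with a sequence, the cluster's members included, 6 of the 130 and 23 of the 129 did. Across 56 members Pearson's correlation of U content with the log2 difference was -0.50 (Spearman -0.47), and across the 461 microRNAs with a sequence it was -0.34 (Spearman -0.35). Across 59 members it was -0.36 for WT-exercise and -0.37 for WT-corticosterone, against -0.06 and -0.07 over 474 and 470 microRNAs. It had the other sign for KO-exercise against KO-water (0.27 across 55 members, 0.21 across 454 microRNAs) and for KO-corticosterone against KO-water (0.30 across 58 members, 0.20 across all microRNAs with a sequence). For KO-water against WT-water it was -0.52 across 58 members (-0.27 across 469 microRNAs). For the exercise and corticosterone interactions with genotype it was 0.59 and 0.57 across members (0.26 and 0.25 across all microRNAs with a sequence). These KO comparisons and interactions share the KO-water libraries. These correlations run across microRNAs measured in the same libraries, which are not independent replicates, and are given with no test.

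**Figure D5:**
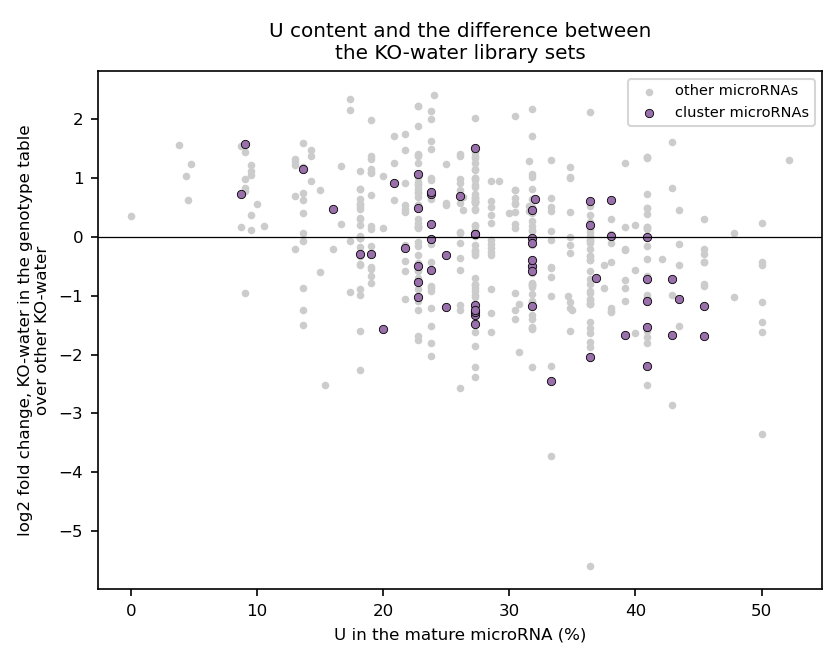
Share of U in the mature microRNA (horizontal axis, %) against the log2 difference between the KO-water libraries in the genotype table and the other KO-water libraries (vertical axis), with the cluster's members in purple over all other microRNAs in grey. The members of lowest values, miR-544-5p at -2.45 and miR-544-3p at -2.20, have 33.3% and 40.9% U, beside a median of 27.3% over 56 members.

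The microRNAs of the other side of the locus, named for miR-127 and miR-433 and upstream of the cluster, were counted in the same fits. Of 23 tested, 4 rose and 6 fell in WT-exercise, 3 rose and 9 fell in WT-corticosterone, and 6 were higher and 11 lower between the KO-water sets. Over all microRNAs 19.9% rose and 12.7% fell, 24.9% rose and 17% fell, and 28.9% were higher and 25.6% lower. Their log2 fold changes ran from -1.02 to 0.91, from -1.09 to 0.68 and from -2.56 to 1.38. Their share of all counts was 2.54% ± 0.08 (SD, n = 7) in WT-water, and 1.08% to 1.26% in the KO-water libraries of the genotype table against 2.296% to 2.67% in the other KO-water libraries. For the cluster the corresponding shares were 2.10% to 2.17% and 2.53% to 2.86%.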

How the data were processed

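Per the labels' protocols, total RNA (3 ug per mouse) was enriched for small RNA, ligated with the Ion Total RNA-Seq Kit and read with Ion Torrent S5 sequencing. The authors deposited 5 tables of raw read counts per mature microRNA, 1 per comparison. The submitters' processing notes name cutadapt 2.3, BWA, Subread, featureCounts, limma 3.54.1 and the builds GRCm38 and mm10; the use of strand in counting, and the handling of reads that match several microRNAs, are not stated in those sources. The 24 columns that recur between tables held identical counts, so the tables were joined into 31 libraries, grouped by the labels.

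The counts were tested with edgeR 4.0.16 (quasi-likelihood, TMM factors, filterByExpr, only the groups compared) in R 4.3.3, and Benjamini-Hochberg adjusted over all microRNAs tested. Arm ratios (hairpins with a mean of at least 10 counts in each arm, 0.5 added to each count) were tested with limma 3.58.1. Both were tested on simulated data with a log2 change of 1, for WT-exercise against WT-water and for the KO-water sets. There edgeR called 86.9% and 77.5% of the changed microRNAs, and 6.49% and 1.99% of its calls were unchanged microRNAs. The arm ratio test called 42.5% and 34.2% of the changed hairpins, so it can miss changes of that size. The simulated microRNAs varied independently of each other, without the axis of variation that the real libraries share. These shares of right and wrong calls therefore need not hold for the reported fits. Alternatives were DESeq2 1.42.0 and its size factors, unscaled library sizes, other filters, a joint fit, a replicate block, the letter of the sample code, the axis of variation within groups (libraries projected on its loadings; centred by group, and for arm ratios, only after the data were seen), the KO-water sets, and leaving out each library.

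The members and lists were chosen with earlier results of these data known. Members named are 25 of known interest, the 10 most abundant, and per comparison the called ones (at most 12 in each direction where over 24 passed; the 3 smallest p where none did) and both arms of up to 8 called hairpins; members listed outside this rule were named after their values were seen. The replicate numbers were not used to pair libraries in the reported fits. In no comparison did same-numbered libraries deviate together in every pair. A correlation over 0.1 was found in 2 of 5 pairs in WT-exercise and WT-water. The most was 3 of 5, in KO-exercise and KO-water. The correlations of such pairs ran from -0.54 (KO-exercise and WT-exercise) to 0.63 (WT-exercise and WT-corticosterone), so this check cannot exclude a pairing. No 2 libraries of the same group agreed within sampling noise, and libraries of different groups were not compared in this way. The p-values set a difference between groups against the spread between these libraries, which in KO-water and WT-exercise includes the split along the axis.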

Additional observations from a re-analysis of the deposited data

Results flagged for a closer look

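Members named in the report were checked for a single library far from the rest of its group, by the gap to the nearest library over the range of the group (Dixon's 95% limit). Of 270 groups of values tested 21 held such a library. The limit gives about 1 in 20 for independent, normally spread values. These members were measured in the same libraries, so the count cannot be set against that rate. Neither a cause nor the difference between these libraries was tested.

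WT-corticosterone library 2 stood apart most often, in 6 of the 21. It had 259.8 CPM of miR-329-5p against 81.6 to 138 CPM in the other 5 libraries, 286.1 CPM of miR-666-3p against 142 to 181 CPM, and 6564 CPM of miR-376a-3p, the most abundant member, against 3056 to 4248 CPM. It also had 332 CPM of miR-382-3p against 66.1 to 162.97 CPM, 16.4 CPM of miR-323-5p against 2.68 to 7.82 CPM and 151.5 CPM of miR-377-3p against 60.7 to 86.6 CPM. In all 6 it was the highest library. Of the same group, library 4 had 19.9 CPM of miR-299a-3p against 13.5 to 15.5 CPM and library 1 had 179 CPM of miR-410-3p against 63.7 to 104.2 CPM.

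Among KO-water libraries, library 2 had 343 CPM of miR-299a-5p against 177 to 235 CPM, 1185 CPM of miR-487b-3p against 681 to 852 CPM and 41.9 CPM of miR-541-3p against 21.3 to 27.6 CPM. In KO-exercise, library 2 had 109 CPM of miR-380-3p against 133.6 to 142 CPM.

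In WT-exercise, library 2 was lowest in miR-382-5p (1083 CPM against 1571 to 1666) and in miR-485-5p (62.0 CPM against 108.1 to 125), and highest in miR-411-3p (396 CPM against 213 to 265). WT-exercise library 3 had 11.1 CPM of miR-668-5p against 2.55 to 4.96 CPM.

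WT-water library 6 had 108.1 CPM of miR-666-5p against 55.3 to 77.3 CPM, 732 CPM of miR-382-5p against 1055 to 1225 CPM and 16.6 CPM of miR-668-5p against 4.38 to 8.71 CPM. WT-water library 5 had 653.9 CPM of miR-543-3p against 492.6 to 543.7 CPM, and WT-water library 2 had 143 CPM of miR-380-3p against 92.3 to 111 CPM.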

How the results depend on the processing

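Groups held 2 to 7 libraries, and both this number and the depth limit the precision. Counts of members called that moved by over 1.5 times are given here beside the reported count, in edgeR unless another tool is named. For each change below, also where fewer libraries entered the fit, the cause was not tested.

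The 16 members called in WT-exercise became 1 with the axis score in the model and 35 with scores centred within groups, a setting chosen after seeing the data. The 27 called in WT-corticosterone became 16 in a joint fit of all groups and 2 with the axis score. In both comparisons most treated libraries scored above every WT-water library. Fits with the axis score, also those of arm ratios, therefore cannot part treatment from the axis there. In KO-exercise against KO-water 0 became 1 in the joint fit, 9 with the axis score, 8 with centred scores, 23 with only the KO-water libraries in the genotype table and 14 with only the others. In KO-corticosterone 0 became 11 and 3 with those 2 sets of controls. In KO-water against WT-water 0 became 10 with DESeq2, 2 with DESeq2 size factors, 1 with no filter on low counts, 5 at a mean of at least 10 CPM, 7 in the joint fit, 29 with centred scores and 39 with only the genotype-table libraries. The interactions went from 0 to 23 (exercise) and 14 (corticosterone) with centred scores and to 30 and 27 with only the genotype-table libraries. Between the KO-water sets 37 became 0 with the axis score, which nearly equals the set. KO-exercise against WT-exercise and WT-exercise against WT-corticosterone were 0 in every alternative run.

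With 1 library left out, the counts ranged from 7 to 32 in WT-exercise, 18 to 37 in WT-corticosterone, 0 to 1 in KO-exercise, 0 to 11 in KO-water against WT-water and 30 to 39 between the KO-water sets, and were 0 to 0 in the other 5 comparisons. Hairpins with a called arm ratio ranged from 3 to 14 in WT-exercise, 7 to 13 in WT-corticosterone, 0 to 2 in KO-exercise, 0 to 6 in KO-water against WT-water and 13 to 16 between the KO-water sets. In KO-corticosterone a fit without 1 of its 2 libraries assumes that the other varies as KO-water does.

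Called hairpins went from 11 to 0 in WT-exercise, from 10 to 2 in WT-corticosterone and from 2 to 6 in KO-exercise with the axis score (chosen after seeing the data), and from 2 to 1 in KO-exercise at a mean of at least 50 counts in each arm. With the replicate number as a block, a pairing the labels do not state, the members called were 2 in WT-exercise, 19 in WT-corticosterone and 7 in KO-corticosterone. The called hairpins were 0 in WT-exercise and 0 in KO-exercise. By correlation, the own number was the best match in 2 of 5 WT-exercise and 0 of 6 WT-corticosterone libraries. The mean share of the cluster in all counts, 2.49%, was 3.29% of the counts without miR-124-3p.

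With the axis score some log2 fold changes took the other sign, none of them past the threshold. In WT-exercise these were miR-666-5p (-0.10) and miR-409-5p (-0.0018). In WT-corticosterone they were miR-666-5p (-0.24), miR-544-5p (0.15), miR-382-5p (-0.17), miR-134-5p (-0.41) and miR-154-3p (0.019), and the arm ratios of miR-666 (-0.21) and miR-376c (0.11). Between the KO-water sets they were miR-411-5p (-0.76), miR-380-3p (1.15), miR-666-5p (-0.064), miR-666-3p (0.68), miR-543-3p (0.0079), miR-667-3p (-0.17), miR-376c-3p (-0.70), miR-300-3p (0.88), miR-381-3p (0.47), miR-544-5p (1.12), miR-382-3p (1.30), miR-134-5p (-0.48), miR-134-3p (2.62), miR-668-5p (0.66), miR-668-3p (-0.28), miR-377-3p (3.72) and miR-369-3p (0.43). With only the genotype-table KO-water libraries, miR-329-3p (0.62), miR-495-3p (0.62), miR-300-3p (0.48) and miR-154-5p (0.86) turned and passed in KO-exercise, as did miR-329-3p (0.71), miR-381-3p (0.85) and miR-154-5p (0.78) in KO-corticosterone.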
